A study of Mus musculus with 18 samples.

Results

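miR-296 and miR-298 are microRNAs (miRNAs) of the imprinted Gnas locus of the mouse, and 3 of their mature strands are described here: mmu-miR-296-5p, mmu-miR-296-3p and mmu-miR-298-5p, written below without the species prefix. They were taken by name from the 1841 mature miRNAs that the count tables list. miR-298-5p was chosen by its measured response to the loss of Cyrano, which differed between Cdr1as backgrounds and between tissues before any adjustment for multiple tests. Those contrasts are given for the members as a description with no test.

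Small RNAs of 18 to 32 nt were sequenced from mouse brain in 18 libraries, 3 per group, of male C57BL/6J mice aged 1 month. Hippocampus came from CyrKO mice, which lack the long noncoding RNA Cyrano, and from wild-type (WT) mice. Cerebellum came from double mutants (CyrKO;Cdr1as671), from Cdr1as671 mice, whose circular RNA Cdr1as carries an 18-nt deletion at its miR-671 site, from CyrKO mice and from WT mice. The libraries are called biological replicates, but no label ties a library to an animal or a hippocampus to a cerebellum, so p-values measure the spread between these libraries. Cyrano and Cdr1as themselves were not measured in small RNA, and the genotypes were not checked on them.

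In a brain cell a miRNA hairpin is cut into a duplex, one strand of which is usually kept in an Argonaute protein and finds its targets through the seed, bases 2 to 8. Genes at an imprinted locus are expressed from 1 parental copy. At Gnas, which encodes the stimulatory G protein alpha subunit of hormone and dopamine receptors, the antisense transcript Nespas and the miR-296 and miR-298 hairpins are known in the mouse to be expressed from the paternal copy. Human miR-296-5p is known for lowering HGS, a receptor-sorting protein, in endothelial cells, and mouse miR-298 for lowering BACE1, the beta-secretase of neurons, in cultured cells.

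The sequences are shown because the strands of 1 hairpin behaved differently below. In GENCODE's annotation of GRCm38, Mir296 lies at chr2:174267047-174267125 and Mir298 at chr2:174267504-174267585, both on the minus strand, 378 bases apart and outside any other annotated gene. Nespas lies on the same strand at chr2:174281237-174295436, so that Mir298 is 13651 bases past its annotated end, and Gnas lies on the plus strand at chr2:174284320-174346744. The hairpins follow from RefSeq (GRCm38.p6), 5′ to 3′, with both mature strands in capitals.
Mir296: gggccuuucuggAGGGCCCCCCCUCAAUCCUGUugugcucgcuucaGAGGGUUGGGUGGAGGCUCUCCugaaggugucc
Mir298: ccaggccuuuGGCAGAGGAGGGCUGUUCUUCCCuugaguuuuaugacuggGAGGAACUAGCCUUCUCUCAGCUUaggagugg

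The mature strands follow with the seed in capitals. No seed was shared among them, and none was shared with any other mouse miRNA of the RefSeq table, which holds 1679 mature strands and a sequence for 1573 of the 1841 listed miRNAs.
miR-296-5p: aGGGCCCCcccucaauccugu
miR-296-3p: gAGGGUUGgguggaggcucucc
miR-298-5p: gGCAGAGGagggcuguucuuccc
miR-298-3p: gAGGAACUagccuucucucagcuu
All 3 members are rich in G and C, at 66.7% for miR-296-5p, 68.2% for miR-296-3p and 65.2% for miR-298-5p, against a median of 50% over 637 miRNAs tested between tissues that have a sequence. They differ in which base carries this: C makes up 47.6% of miR-296-5p, and G makes up 50% of miR-296-3p.

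Libraries held 8591172 to 15305829 miRNA reads. The members rested on 3983 to 9791 reads for miR-296-5p, 127 to 906 for miR-296-3p and 884 to 7038 for miR-298-5p in each library, and all 3 passed the filter on low counts in every comparison. Levels are given as CPM, counts scaled to a library total of 1000000 miRNA reads. The tissue labels held: miR-137-3p, a forebrain miRNA, had 9891 to 10814 CPM in hippocampus and 382.3 to 645 CPM in cerebellum, and miR-206-3p, known from muscle and cerebellum, had 3.97 to 6.75 CPM in hippocampus and 790.5 to 1232 CPM in cerebellum.

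miR-296-5p was the most abundant of the strands in every library but CyrKO hippocampus library 1, where miR-298-5p exceeded it. It had 469, 866 and 848 CPM in CyrKO hippocampus libraries 1, 2 and 3, against 831, 807 and 886 CPM in WT hippocampus. In cerebellum it had 378, 648 and 545 CPM in the double mutant, 624, 700.5 and 569 CPM in Cdr1as671, 790.2, 299.8 and 674 CPM in CyrKO, and 565, 621 and 673 CPM in WT. The WT and Cdr1as671 libraries lay close together, while 1 library was far below its 2 partners in each of CyrKO hippocampus, the double mutant and CyrKO cerebellum. The group means were 728 ± 224 CPM in CyrKO and 841 ± 40.5 CPM in WT hippocampus, and 524 ± 136.4 CPM in the double mutant, 631 ± 66.3 in Cdr1as671, 588 ± 256 in CyrKO and 619.6 ± 54.3 CPM in WT cerebellum (SD, n = 3 each). In the order of these means no group differed from its neighbour by more than their pooled SD. The order itself depended on the scaling and is not kept after TMM scaling (trimmed mean of M-values, which brings the typical miRNA to the same level in all libraries), where CyrKO hippocampus was lowest at 548 ± 174 and Cdr1as671 highest at 713 ± 50.7 TMM-scaled CPM.

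miR-296-3p, the strand opposite, was far rarer and showed a clear step between tissues. It had 67.5, 63.6 and 67.4 CPM in CyrKO hippocampus, against 62.5, 66.8 and 59.9 CPM in WT hippocampus. In cerebellum it had 16.7, 14.8 and 14.4 CPM in the double mutant, 17.1, 18.95 and 17.2 CPM in Cdr1as671, 18.1, 16.0 and 21.7 CPM in CyrKO, and 19.5, 20.8 and 19.4 CPM in WT. Every hippocampus library was above every cerebellum library. With 127 reads, the double-mutant library with the fewest had 14.4 CPM with an exact (Clopper-Pearson) 95% interval of 12.01 to 17.1 CPM, which covers counting error only and reaches into the range of the Cdr1as671 and CyrKO libraries. In the order of group means the double mutant (15.3 ± 1.22 CPM) lay below Cdr1as671 (17.7 ± 1.05) by more than their pooled SD and with no overlap in CPM, as did 14.8% of 688 miRNAs. On the TMM scale these groups overlapped, at 17.5 to 19.9 in the double mutant and 19.5 to 20.7 in Cdr1as671, and library totals alone moved the median log2 difference of all miRNAs in this comparison by −0.11. CyrKO cerebellum (18.6 ± 2.88) and WT cerebellum (19.9 ± 0.774) overlapped with the group below each of them, and CyrKO hippocampus (66.2 ± 2.21) and WT hippocampus (63.1 ± 3.51 CPM) overlapped with each other (SD, n = 3 each).

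miR-298-5p had its step between the same tissues. It had 524, 492 and 474 CPM in CyrKO hippocampus, against 499.6, 451 and 419 CPM in WT hippocampus. In cerebellum it had 101, 105 and 100.3 CPM in the double mutant, 95.0, 104 and 105 CPM in Cdr1as671, 102, 97.0 and 109 CPM in CyrKO, and 131, 132 and 115 CPM in WT. The 3 mutant cerebellum groups covered the same range and the WT cerebellum libraries lay above all of them. The group means were 497 ± 25.3 CPM in CyrKO and 457 ± 40.6 CPM in WT hippocampus, and 102 ± 2.39 CPM in the double mutant, 101 ± 5.60 in Cdr1as671, 103 ± 6.11 in CyrKO and 126 ± 9.43 CPM in WT cerebellum (SD, n = 3 each). In the order of these means, neighbours overlapped except CyrKO and WT cerebellum, 23.5 CPM apart, and the step to hippocampus. The partner strand miR-298-3p, which is not a member, was rare in cerebellum, with 2.31 ± 1.46 CPM in the double mutant, 2.76 ± 0.394 in Cdr1as671, 3.38 ± 0.411 in CyrKO and 3.24 ± 0.690 CPM in WT, and had 10.8 ± 0.309 CPM in CyrKO and 9.61 ± 1.36 CPM in WT hippocampus.

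**Figure D1:**
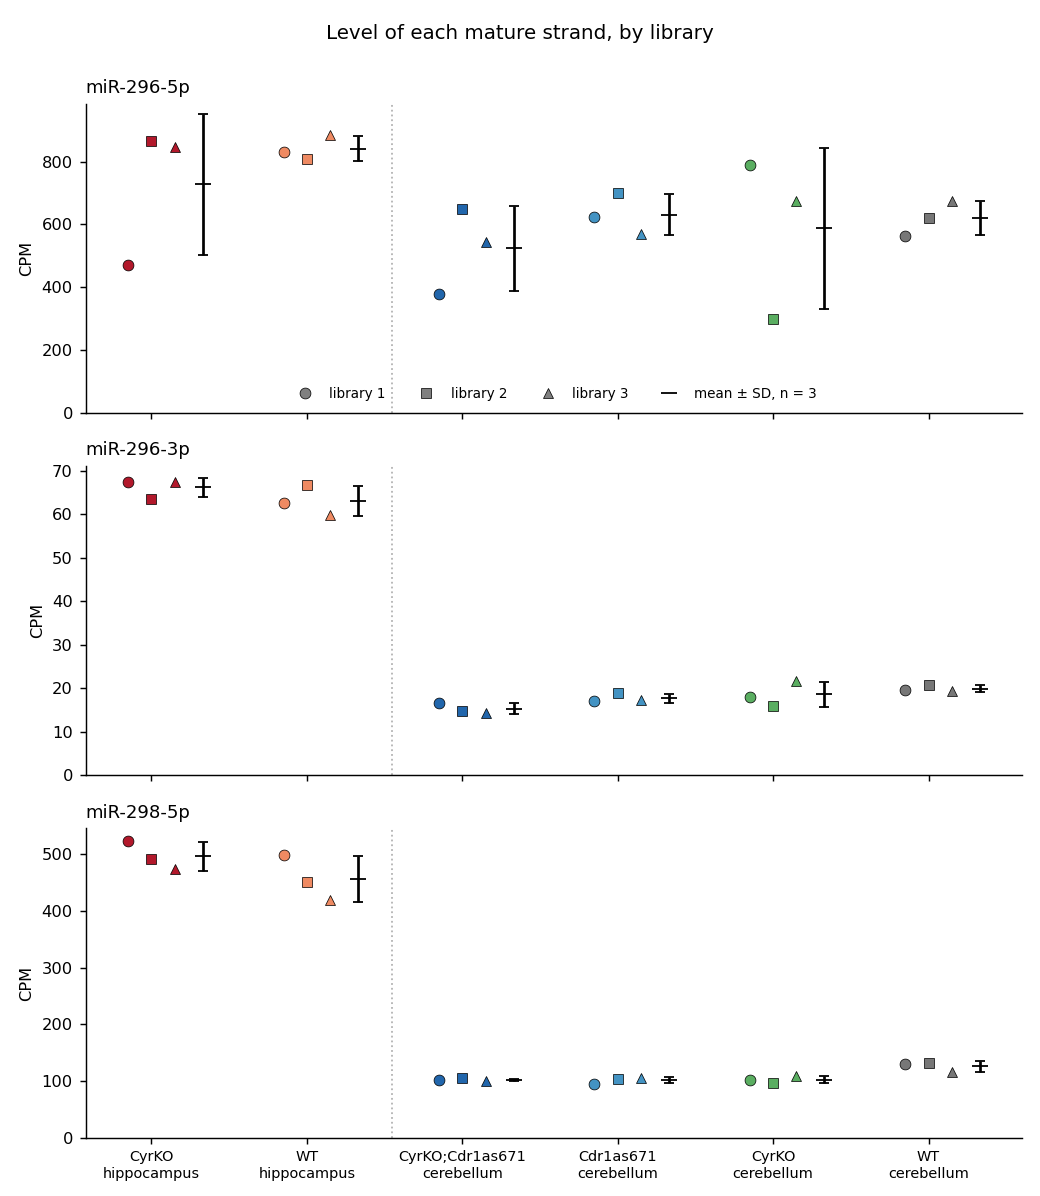
Level of miR-296-5p, miR-296-3p and miR-298-5p in CPM (y axis, from 0) in each library, by group (x axis); symbols give the library number and black bars the mean ± SD of 3 libraries. miR-296-3p and miR-298-5p are higher in all 6 hippocampus libraries than in any of the 12 cerebellum libraries, and miR-296-5p has a library far below its partners in CyrKO hippocampus (469 CPM), the double mutant (378 CPM) and CyrKO cerebellum (299.8 CPM).

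The tissues were compared over the 12 WT and CyrKO libraries, as the mean difference of both genotypes, which the choice of miR-298-5p did not use. miR-298-5p and miR-296-3p rose in hippocampus, and miR-296-5p did not pass the test. miR-298-5p averaged 477 ± 37.4 CPM in hippocampus and 114 ± 14.7 CPM in cerebellum, 4.17-fold higher (SD, n = 6 each). miR-296-3p averaged 64.6 ± 3.12 CPM in hippocampus and 19.3 ± 2.02 CPM in cerebellum, 3.36-fold higher. miR-296-5p averaged 784 ± 157 CPM in hippocampus and 604 ± 167 CPM in cerebellum (ratio 1.30), with overlapping libraries. The libraries of miR-298-5p and miR-296-3p did not overlap between tissues, which held for 48.8% of all 746 miRNAs tested toward higher levels in hippocampus. The background of calls is also wide, since 80.3% of the 746 passed edgeR's quasi-likelihood test at an adjusted p under 0.05, 42.5% higher and 37.8% lower in hippocampus. On the TMM scale the log2 difference was 1.50 (SE 0.07, adjusted p = 3.89e-12) for miR-298-5p, 1.19 (SE 0.08, adjusted p = 5.94e-10) for miR-296-3p and 1.05 (SE 0.12, adjusted p = 8.53e-07) for miR-298-3p. For miR-296-5p it was −0.18 (SE 0.24, adjusted p = 0.502) on the TMM scale and 0.37 (adjusted p = 0.189) with library totals alone, so its direction depended on the scaling.

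The scaling moved the tissue differences together. With library totals alone the median log2 difference of all 746 miRNAs was 0.64, against 0.07 on the TMM scale, a shift of 0.56, and the calls split into 445 higher and 145 lower in place of 317 and 282. Against either median miR-298-5p and miR-296-3p were higher, at 2.07 and 1.75 with library totals alone, while miR-296-5p lay below the median on both scales. Within each genotype miR-296-3p rose in hippocampus, by 1.26 (SE 0.11, adjusted p = 4.00e-08) on the log2 TMM scale in CyrKO mice, where 72.1% of miRNAs passed edgeR's test, and by 1.11 (SE 0.11, adjusted p = 1.77e-07) in WT mice, where 70% passed. In the same fits miR-296-5p was at −0.25 (SE 0.34, adjusted p = 0.519) in CyrKO and −0.11 (SE 0.34, adjusted p = 0.789) in WT mice, signs that turned with library totals alone (0.31 and 0.44). miR-298-5p was at 1.70 (SE 0.10) in CyrKO and 1.30 (SE 0.10) in WT mice, given without a test since the difference of these 2 values entered its choice.

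In CPM, with library totals alone, the summed levels of erythroid, vessel and neuronal marker miRNAs also differed between tissues without overlap. The TMM scale divides CPM by 1.25 to 1.36 in hippocampus and by 0.868 to 0.921 in WT and CyrKO cerebellum. On that scale the vessel sums overlapped between tissues. Those of oligodendrocyte, microglia and leukocyte, and choroid plexus markers overlapped. Fewer cells of a type cannot be told apart from less RNA per cell in such bulk samples. The 3 erythroid markers summed to 2583 to 3574 CPM in hippocampus and 6326 to 32949 CPM in WT and CyrKO cerebellum, and the 4 vessel markers to 11245 to 14697 CPM in hippocampus and 7817 to 8840 CPM in cerebellum. The 3 oligodendrocyte markers summed to 9564 to 15623 CPM in hippocampus and 6589 to 11006 CPM in cerebellum, and the 4 neuronal markers to 264492 to 294638 CPM in hippocampus and 310561 to 373252 CPM in cerebellum. The 2 listed of 4 microglia and leukocyte markers summed to 2459 to 3044 CPM in hippocampus and 1952 to 2617 CPM in cerebellum. The sum of the 6 choroid plexus markers ranged from 3535 to 16713 CPM in hippocampus and from 8534 to 10474 CPM in cerebellum. No listed marker was at 0 in all libraries, and the part of these cell types in the tissue differences was not tested.

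**Figure D2:**
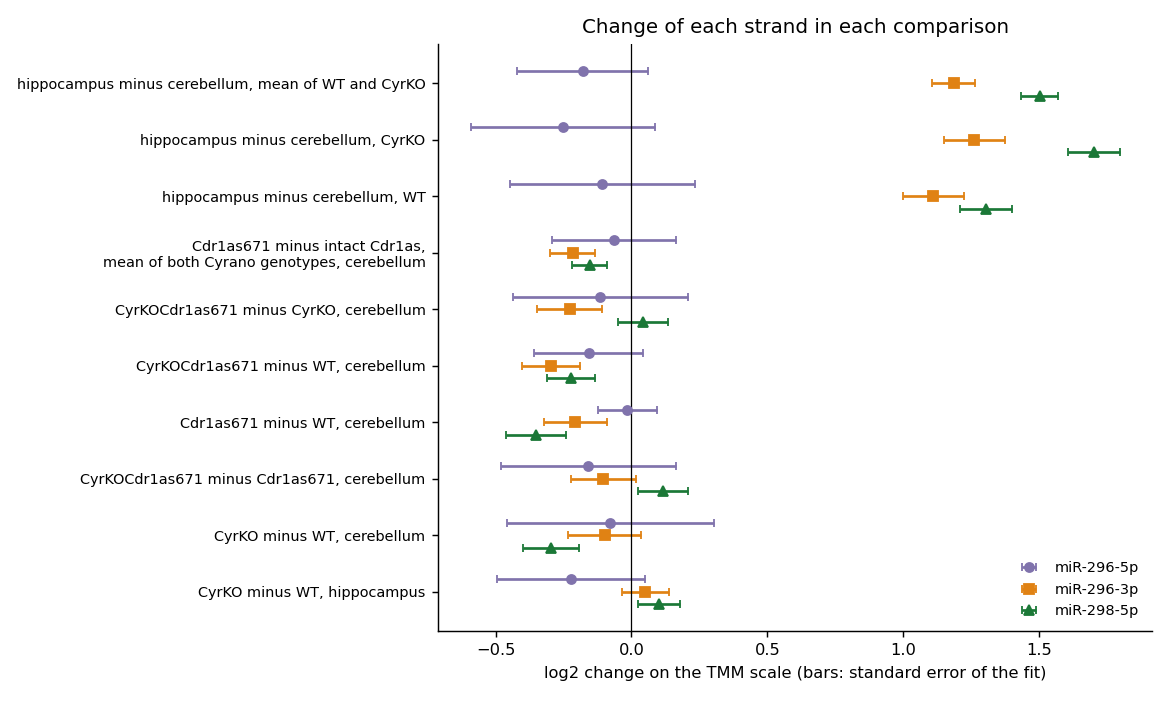
Log2 change on the TMM scale (x axis) of each strand in each comparison (y axis), with the standard error of the fit as bars; the second group of each comparison is subtracted from the first. The tissue comparisons place miR-296-3p and miR-298-5p between 1.11 and 1.70 and miR-296-5p between −0.25 and −0.11, and all cerebellum comparisons lie between −0.35 and 0.12.

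Because the strands of the miR-296 hairpin differed between tissues by unequal amounts, their ratio was examined within each library, where no scaling between libraries enters. Reads of miR-296-5p per read of miR-296-3p were 6.96, 13.6 and 12.6 in CyrKO hippocampus, against 13.3, 12.1 and 14.8 in WT hippocampus. They were 22.6, 43.7 and 37.9 in the double mutant, 36.6, 37.0 and 33 in Cdr1as671, 43.7, 18.7 and 31.0 in CyrKO cerebellum, and 28.9, 29.9 and 34.7 in WT cerebellum. The ratio was thus lower in every hippocampus library than in any cerebellum library, even in those low in miR-296-5p. Its log2 averaged 3.57 ± 0.39 in 6 hippocampus libraries and 4.92 ± 0.40 in 6 WT and CyrKO cerebellum libraries, a difference of −1.35 (exact two-sided permutation p = 0.00216, the smallest that 6 against 6 can give, adjusted p = 0.00433 over 4 ratio tests, lower in 6 of 6). The test reuses the libraries in which miR-296-3p was already seen to separate the tissues and miR-296-5p was not. Its p is therefore largely set by that result and lends no independent support. How many other pairs of strands separate so between tissues was not counted. The strands of miR-335 also changed unequally between tissues, with log2 differences on the TMM scale of 1.53 (3p) and 0.18 (5p).

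The 5p strands of both hairpins were set against each other in the same way. This ratio reuses the miR-296-5p counts, and miR-298-5p was already seen to be higher in hippocampus, so its test adds no independent support. Reads of miR-298-5p per read of miR-296-5p ran from 0.473 to 1.12 in hippocampus and from 0.128 to 0.323 in WT and CyrKO cerebellum. The log2 ratio averaged −0.69 ± 0.43 in hippocampus and −2.35 ± 0.46 in cerebellum, a difference of 1.66 (exact two-sided permutation p = 0.00216, adjusted p = 0.00433, higher in 6 of 6). By contrast the ratio of miR-298-5p to miR-296-3p, 1 strand from each hairpin, stayed between 6.75 and 7.99 in hippocampus and between 5.02 and 6.69 in WT and CyrKO cerebellum. These last ranges did not overlap, and their difference was not tested. The ratio of miR-298-5p to its own partner strand was 44.7 to 50.6 in hippocampus and 28.4 to 43.3 in WT and CyrKO cerebellum, from as few as 27 reads of the partner. In the other cerebellum groups it was 30.0 to 147 in the double mutant, from as few as 6 reads of the partner, and 30.6 to 44.7 in Cdr1as671, so hippocampus does not stand apart from all cerebellum libraries in it. A ratio of reads also carries how well each sequence is captured, so it is not read as a ratio of molecules. Comparing libraries does not remove a capture that differs between them, which was not tested. The ratios with miR-296-5p also carry its spread between replicates. Its SD within groups was 0.41 in log2 TMM-scaled CPM, against 0.10 for miR-296-3p and 0.08 for miR-298-5p.

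**Figure D3:**
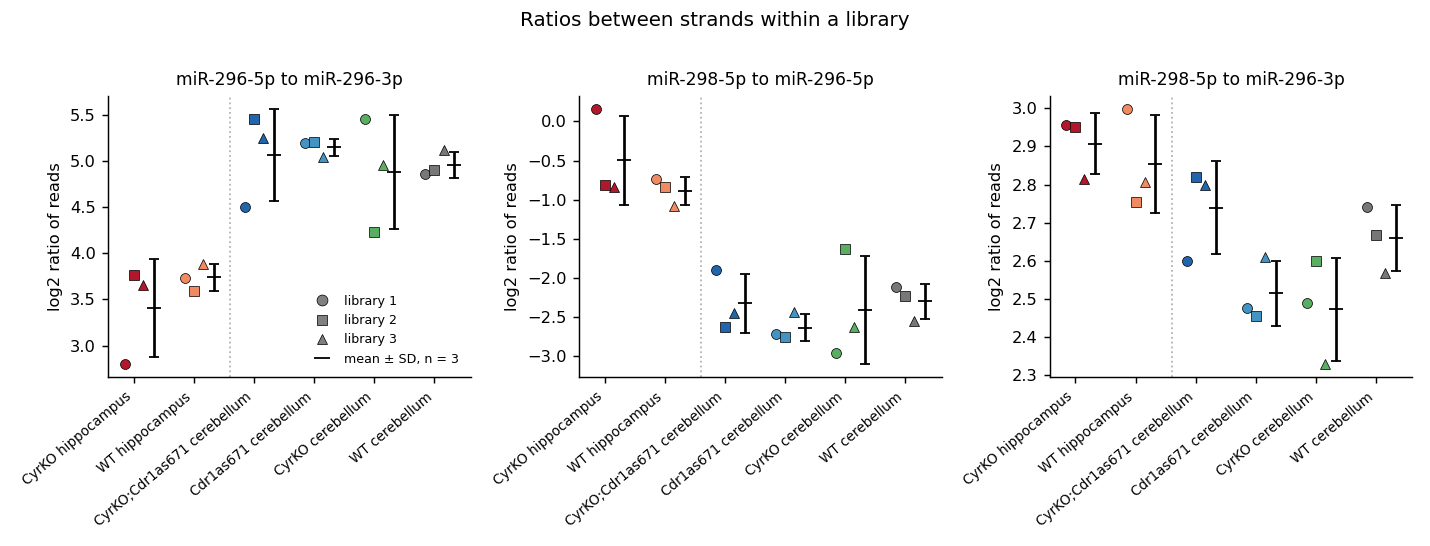
Log2 ratio of reads between strands (y axis) in each library by group (x axis), with symbols for the library number and black bars for the mean ± SD of 3 libraries. The ratio of miR-296-5p to miR-296-3p is lower, and that of miR-298-5p to miR-296-5p higher, in all hippocampus libraries than in any cerebellum library, while the ratio of miR-298-5p to miR-296-3p spans a narrower range.

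Cdr1as is a neuronal circular RNA that binds miR-7 and is sliced through miR-671, and the comparison of both Cdr1as671 groups with both groups of intact Cdr1as asks which miRNAs respond to the loss of that site. This mean is independent of the Cyrano contrasts in the fit. None of the 3 strands passed. miR-296-5p averaged 577 ± 112 CPM in the 6 libraries with the deletion and 604 ± 167 CPM in the 6 without (log2 difference −0.07, SE 0.23, adjusted p = 0.884). miR-296-3p averaged 16.5 ± 1.68 CPM with the deletion and 19.3 ± 2.02 CPM without (−0.22, SE 0.08, adjusted p = 0.0906), and miR-298-5p 102 ± 3.87 CPM with and 114 ± 14.7 CPM without it (−0.15, SE 0.07, adjusted p = 0.115). Of the 688 miRNAs tested, 17.2% passed edgeR's quasi-likelihood test, 48 higher and 70 lower. Neither strand ratio differed beyond the spread of the libraries: the log2 ratio of miR-296-5p to miR-296-3p was 5.11 ± 0.32 with the deletion and 4.92 ± 0.40 without (difference 0.19, exact permutation p = 0.405, adjusted p = 0.540), and that of miR-298-5p to miR-296-5p −2.48 ± 0.31 with and −2.35 ± 0.46 without it (difference −0.13, exact permutation p = 0.597, adjusted p = 0.597).

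Neither miR-296 strand passed in a single comparison with the deletion. For miR-296-3p the log2 difference was −0.23 (SE 0.12, adjusted p = 0.293) in the double mutant against CyrKO, −0.30 (SE 0.11, adjusted p = 0.177) in the double mutant against WT and −0.21 (SE 0.12, adjusted p = 0.337) in Cdr1as671 against WT. Its libraries lay below WT without overlap in both comparisons with WT, a separation that 21.8% of 662 miRNAs showed in the double mutant and 12% of 665 in Cdr1as671. For miR-296-5p the differences were −0.12 (SE 0.32), −0.16 (SE 0.20) and −0.02 (SE 0.11) in the same order, with adjusted p of 0.862, 0.698 and 0.942. edgeR's test passed 2.33% of all miRNAs in the first comparison, 2.57% (13 higher and 4 lower, against 10 and 21 with library totals alone) in the second and 2.26% in the third, and 0 of these 2 strands in each. The summed erythroid markers were 783, 603 and 16205 CPM in Cdr1as671 libraries 1, 2 and 3 and 5405 to 16004 CPM in the double mutant, against 16566 to 27991 CPM in CyrKO and 6326 to 32949 CPM in WT cerebellum. Without Cdr1as671 libraries 1 and 2, which leaves 1 library in that group, the mean effect of the deletion was −0.17 on miR-296-3p (adjusted p = 0.345) and −0.06 on miR-298-5p (adjusted p = 0.648), and 52 miRNAs passed in place of 118. The part of the erythroid signal in these values was not tested.

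miR-298-5p was chosen for its Cyrano contrasts, and its values in them are as follows, with no test. In hippocampus it had 497 ± 25.3 CPM in CyrKO and 457 ± 40.6 CPM in WT mice, with overlapping libraries and a log2 difference of 0.10 (SE 0.08). In cerebellum it had 103 ± 6.11 CPM in CyrKO and 126 ± 9.43 CPM in WT mice, with no overlap and a log2 difference of −0.30 (SE 0.10). Where the Cdr1as site was deleted it had 102 ± 2.39 CPM in the double mutant and 101 ± 5.60 CPM in Cdr1as671, with a log2 difference of 0.12 (SE 0.09) that was 0.01 with library totals alone. The signed Cyrano effect in hippocampus minus that in cerebellum was 0.40 (SE 0.13), and that with the Cdr1as deletion minus that without it was 0.39 (SE 0.13): the values were slightly positive in hippocampus and with the deletion, and negative in cerebellum with intact Cdr1as. Of all miRNAs tested, 4.94% of 668 had CyrKO cerebellum libraries all below WT, and edgeR's test passed 0.898% there, 0.57% of 702 between the hippocampus groups, 0.727% of 688 between the double mutant and Cdr1as671, 0.402% of 746 for the difference between tissues and 0.145% of 688 for the interaction of both mutations. Without Cdr1as671 library 3 the calls between the double mutant and Cdr1as671 were 52 higher and 6 lower in place of 5 and 0, and those for the interaction 18 and 1 in place of 0 and 1.

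Several of these contrasts share the 3 WT cerebellum libraries, which held the highest cerebellar levels of miR-298-5p. The 9 mutant cerebellum libraries ranged from 95.0 to 109 CPM with a median of 102, and the 3 WT libraries had 131, 132 and 115 CPM. On the TMM scale the mutants ran from 109 to 126 and WT from 129 to 146, again with no overlap. Of the 688 miRNAs tested in cerebellum, 0.581% had all 9 mutant libraries below all 3 WT libraries. The choice of miR-298-5p used these WT and CyrKO libraries and both groups with the deletion. Its separation is therefore partly built in by that choice, and the share lends it no support. The log2 difference from WT was −0.22 (SE 0.09) in the double mutant, −0.35 (SE 0.11) in Cdr1as671 and −0.30 (SE 0.10) in CyrKO. The double mutant set against CyrKO was at 0.04 (SE 0.09). The 4 neuronal markers summed to 309072 to 342312 CPM in the mutants and 340968 to 373252 CPM in WT cerebellum, and their part in this difference was not tested.

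The values of the miR-296 strands in the Cyrano contrasts follow. The choice rested on miR-298-5p, so smaller values here do not show that the strands differ. miR-296-5p was at −0.22 (SE 0.27) in CyrKO against WT hippocampus, −0.16 (SE 0.32) in the double mutant against Cdr1as671 and −0.08 (SE 0.38) in CyrKO against WT cerebellum. miR-296-3p was at 0.05 (SE 0.09), −0.10 (SE 0.12) and −0.10 (SE 0.14) in the same comparisons, on the log2 TMM scale. All these values are within 1 SE of 0, and the standard errors of miR-296-5p are the widest of the members. A change of −0.30, as miR-298-5p had in CyrKO against WT cerebellum, would lie within the SE of miR-296-5p there.

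The replicates of the other strands lay closer together. The SD of log2 TMM-scaled CPM within groups was 0.41 for miR-296-5p, rank 29 of 441 miRNAs with a mean of at least 10 CPM, 0.10 for miR-296-3p and 0.08 for miR-298-5p (rank 417), against a median of 0.14. miR-296-5p lay below its group mean by 0.83 in CyrKO cerebellum library 2, by 0.60 in CyrKO hippocampus library 1 and by 0.45 in double-mutant library 1. In those libraries neither of the other strands lay as much as 0.2 from its group mean, as the plot of deviations by library shows. The same libraries were the deepest of their groups, with 15305829, 13425687 and 10541539 reads, and in 5 of 6 groups the deepest library had the lowest miR-296-5p, which held for miR-296-3p in 1 group and for miR-298-5p in 2. At least 5 groups were so ordered for 3.85% of the 441 miRNAs. Double-mutant library 2 was nearly as deep as library 1, with 10315029 reads. The RNA integrity number (RIN) was 8.7 in CyrKO hippocampus library 1, against 9.0 and 9.1 in its partners. It was 8.5 in double-mutant library 1, against 9.5 and 9.0, and 9.1 in CyrKO cerebellum library 2, against 9.0 and 9.1. The parts of depth and RNA integrity were not tested.

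The miRNAs whose levels followed miR-296-5p most closely over the 18 libraries were miR-1249-3p (Pearson r = 0.935), miR-7047-3p (r = 0.904) and miR-877-3p (r = 0.856), on log2 TMM-scaled CPM. miR-1224-3p came next at r = 0.669. By deviations from the group means it was the closest of all, at r = 0.953, with the other 3 between 0.940 and 0.951. These r are descriptions over libraries that share their depth and preparation. miR-1249-3p shows the swings at full size, with 210.2, 642 and 563 CPM in CyrKO hippocampus, against 387, 587 and 818 CPM in WT hippocampus. In cerebellum it had 188, 637 and 577 CPM in the double mutant, 599, 706 and 515 CPM in Cdr1as671, 914, 146 and 505 CPM in CyrKO, and 312, 439 and 586 CPM in WT. Its lowest library in each of CyrKO hippocampus, the double mutant and CyrKO cerebellum is the one that was lowest in miR-296-5p.

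**Figure D4:**
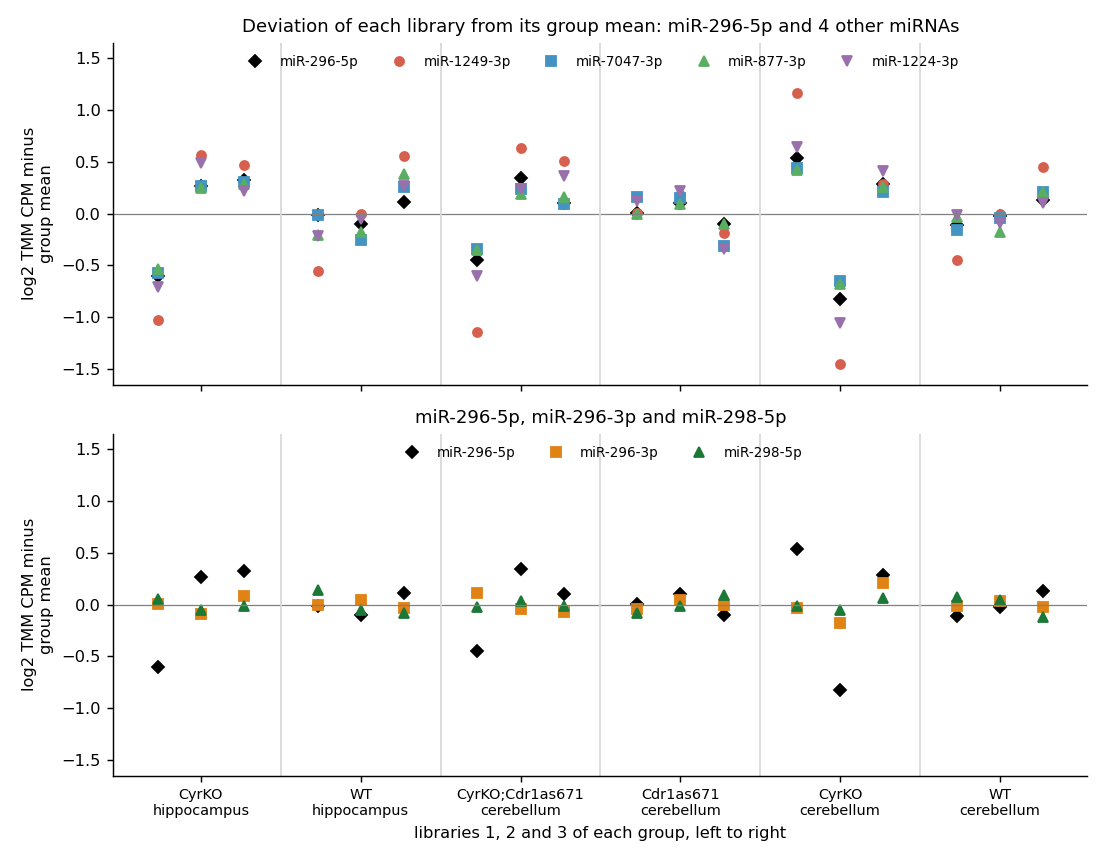
Log2 TMM-scaled CPM of each library minus its group mean (y axis), for libraries 1, 2 and 3 of each group (x axis), for miR-296-5p with 4 other miRNAs (upper panel) and for the 3 strands (lower panel). CyrKO hippocampus library 1, double-mutant library 1 and CyrKO cerebellum library 2 are low for miR-296-5p and all 4 other miRNAs. There miR-296-3p and miR-298-5p deviate by −0.17 to 0.11.

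The sequences of these miRNAs are shown because the 4 share a long run of C and U, in capitals below, a feature chosen after the values were seen (RefSeq, GRCm38.p6).
miR-296-5p: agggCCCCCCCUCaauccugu
miR-1249-3p: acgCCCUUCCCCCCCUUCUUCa
miR-7047-3p: ucacccucaCCCUUCCUCCUUCC
miR-877-3p: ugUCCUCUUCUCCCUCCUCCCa
miR-1224-3p: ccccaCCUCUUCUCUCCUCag
The run is 9 nt in miR-296-5p, 18 in miR-1249-3p, 14 in miR-7047-3p, 19 in miR-877-3p and 14 in miR-1224-3p. Of the 378 miRNAs with a sequence among the 441, these last 4 are the only ones with a run of at least 14. Their r of deviations with miR-296-5p, 0.940 to 0.953, were the highest of all. The feature and its cutoff were chosen with these r known, so the separation lends no support to the feature. The 11 miRNAs with runs of 9 or 10 nt, beside 9 nt in miR-296-5p, had r from −0.32 to 0.56. The 362 with shorter runs had r from −0.68 to 0.799 with a median of −0.05, among them miR-296-3p at 0.22 with a run of 6 and miR-298-5p at −0.04 with a run of 8. These 4 miRNAs come from other chromosomes (16 for miR-1224, 7 for miR-7047, 15 for miR-1249 and 17 for miR-877), and none of them passed edgeR's test between tissues (adjusted p of 0.0710 for miR-1224-3p, 0.434 for miR-1249-3p, 0.0561 for miR-7047-3p and 0.215 for miR-877-3p). The longest run of C alone was also computed. The 23 other miRNAs with a run of at least 4 C had r from −0.32 to 0.953, with a median of 0.19. The part of sequence composition in these swings was not tested.

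**Figure D5:**
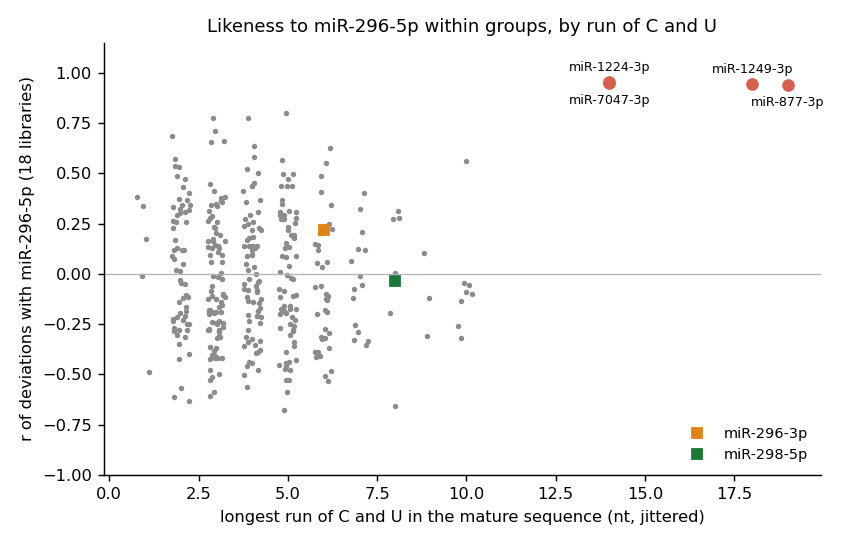
Pearson r of the deviations from group means with miR-296-5p over 18 libraries (y axis) against the longest run of C and U in the mature sequence (x axis, jittered for grey points), for each other miRNA with a sequence among the 441. The 4 miRNAs with a run of at least 14 nt stand at r of 0.940 to 0.953, above all others, and miR-296-3p and miR-298-5p stand among the rest. The feature and the cutoff were chosen with these r known.

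The other strands had different nearest miRNAs. For miR-298-5p they were miR-551b-3p (r = 0.989), miR-3085-3p (r = 0.988) and miR-137-3p (r = 0.988), and for miR-296-3p they were miR-221-3p (r = 0.986), miR-433-5p (r = 0.984) and miR-3085-3p (r = 0.983), with miR-298-5p next at r = 0.982. Over the 12 cerebellum libraries alone the r of these were 0.344 to 0.445 with miR-298-5p and 0.287 to 0.667 with miR-296-3p. By deviations from the group means miR-298-5p had r of 0.436 with miR-551b-3p, −0.25 with miR-3085-3p and 0.415 with miR-137-3p, and miR-296-3p had 0.073 with miR-221-3p, 0.415 with miR-433-5p and −0.41 with miR-3085-3p. miR-296-5p had r = −0.17 with its own partner strand and −0.21 with miR-298-5p over the 18 libraries.

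Other imprinted miRNAs give the setting. Of 6 strands from Mest (miR-335), Igf2 (miR-483) and H19 (miR-675), 4 were tested between tissues, and miR-675-5p and miR-675-3p had at most 3 and 7 reads in a library. miR-335-3p averaged 107 ± 10.9 CPM in hippocampus and 25.0 ± 2.30 CPM in cerebellum (log2 difference 1.53, SE 0.08, adjusted p = 3.36e-11). Its partner miR-335-5p averaged 1869 ± 117 CPM in hippocampus and 1117 ± 92.8 CPM in cerebellum (0.18, SE 0.07, adjusted p = 0.0244, and adjusted p = 0.0529 with RLE size factors). miR-483-3p was at 0.48 (SE 0.20, adjusted p = 0.0396, and 0.0611 with RLE size factors) and miR-483-5p at −0.36 (SE 0.17, adjusted p = 0.0541), which was −0.41 with RLE size factors (adjusted p = 0.0306) and 0.20 with library totals alone. On the TMM scale 3 of these 4 rose and 0 fell, and with RLE size factors 1 rose and 1 fell. Their median was 0.33, against 0.07 for all miRNAs tested. Of 73 listed strands of the imprinted Dlk1-Dio3 region on chromosome 12, expressed from the maternal copy, 66 were tested, 57 rose and 4 fell in hippocampus, with a median log2 difference of 0.90, beside 42.5% higher and 37.8% lower among all 746 miRNAs. With library totals alone 64 rose and 0 fell, beside 445 higher and 145 lower of the 746.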

How the data were processed

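Small RNA was sequenced in 18 libraries, and groups were read from the labels. The authors deposited 4 tables of whole-number counts per miRNA, each a mutant group beside the WT libraries of its tissue; the 6 WT cerebellum columns that recur were identical and entered once. The normalised columns, marked so per the file headers, are a signal equal to the count times 1 factor per library and were not tested. The submitters' processing notes name cutadapt and DESeq2 1.10; the sources used here name no read mapper, miRNA annotation or build.

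The tests on counts ran in edgeR 4.0.16 under R 4.3.3 (filterByExpr with a minimum count of 10 and total of 15, TMM, robust quasi-likelihood F-test, Benjamini-Hochberg adjustment, threshold 0.05), after the procedure was tested on simulated data. The SE is the log2 change over the square root of F. Comparisons with WT of a tissue used those 6 libraries, the others 12. Strand ratios were compared by exact permutation in scipy 1.17.1, and likeness is the Pearson r of log2 TMM-scaled CPM plus 0.5 over 441 miRNAs with a mean of at least 10 CPM. The 3 likest miRNAs per strand, partner strands and imprinted lists were named by rule; miR-1224-3p and the run of C and U were chosen after their values were seen. Members and lists were chosen with earlier results of these data known. Alternatives were other scalings, DESeq2 1.42.0, other filters, a replicate block, all 18 libraries in 1 fit and leaving out each library.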

Additional observations from a re-analysis of the deposited data

How the results depend on the processing

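The tissue differences of miR-298-5p (1.41 to 2.07 over other settings, 1.44 to 1.58 with a library left out) and miR-296-3p (1.09 to 1.75, and 1.14 to 1.28) passed the test under every alternative run, and so did the tissue differences of both strand ratios (−1.48 to −1.19 and 1.49 to 1.80 with a library left out). That of miR-296-5p never passed and ran from −0.29 to −0.05 with a library left out, but was 0.37 with library totals alone. No strand passed for the Cdr1as deletion under any alternative: miR-296-5p ran from −0.20 to 0.079 with a library left out, and the ratio of miR-298-5p to miR-296-5p from −0.25 to 0.017.

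In single comparisons, miR-296-5p in Cdr1as671 against WT was 0.026 with library totals alone, 0.0076 with no low-count filter, 0.055 with all 18 libraries in 1 fit and −0.065 to 0.052 with a library left out. In the double mutant it ran from −0.39 to 0.18 against CyrKO and from −0.35 to 0.044 against WT with a library left out, and between tissues it was 0.31 in CyrKO and 0.44 in WT mice with library totals alone. None of these passed.

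Between tissues, 201 miRNAs passed as higher and 180 as lower at a mean of at least 10 CPM, where fewer were tested, 445 and 145 with library totals alone, and 306 to 332 and 270 to 293 with a library left out. For the Cdr1as deletion, all 18 libraries in 1 fit gave 94 higher, leaving out Cdr1as671 libraries 1 and 2 gave 20 lower, and leaving out 1 library gave 25 to 76 higher and 30 to 85 lower. The lower calls fell to 36 without WT library 1, 41 without WT library 3, 42 without CyrKO library 3, 36 and 44 without Cdr1as671 libraries 1 and 2, and 37 and 30 without double-mutant libraries 2 and 3. The higher calls were 28 without WT library 3, 30 and 76 without Cdr1as671 libraries 1 and 3, and 25 without double-mutant library 3. In Cdr1as671 against WT, leaving out 1 library gave 0 to 40 higher and 0 to 72 lower calls. In the double mutant it gave 6 to 30 and 0 to 28 against WT, and 2 to 13 and 0 to 13 against CyrKO. With library totals alone the double mutant had 7 higher and 18 lower calls against CyrKO and 5 and 3 against Cdr1as671.

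Replicate numbers are shared across groups, but only 20 of 45 same-numbered pairs of libraries correlated above 0.1 in their deviations (median r −0.03, and −0.06 for other pairs), so the numbers were not taken to pair libraries. With the replicate block the calls were 315 higher and 280 lower between tissues, 42 and 60 for the deletion, 7 and 35 in Cdr1as671 against WT and 16 and 19 in the double mutant against WT. The tissue differences were 1.50, 1.19 and −0.17 for miR-298-5p, miR-296-3p and miR-296-5p, and no call on a strand changed. The likeness by deviations was added after seeing the data.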
